A study of Mus musculus with 11 samples.

Results

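The genes described here are 10 that macrophages use to take up, store and export lipid, followed in RNA libraries of mouse colon macrophages: Apoe, Lpl, Abca1, Abcg1, Cd36, Plin2, Fabp4, Fabp5, Pltp and Lrp1. They were found by gene symbol, and all 10 were among the 23282 entries of every count table. The macrophages carried the surface pattern CD45+ CD11b+ Ly6G- Ly6C- MHCII+ CD64+ per the labels. All mice are labelled as given 2.5% dextran sodium sulphate (DSS), an agent that injures the colon lining and models colitis, in their water over a 5-day period. One genotype was wild type (WT). The other was a strain named Csf1r-EP4-/-, called knockout (KO) here, in which EP4, a prostaglandin E2 receptor encoded by Ptger4, is named as lost. The labels name neither the Cre line nor the deleted exons, and give no age, no sex and no number of animals per library. The titles place the 11 libraries at day 0, called early, or day 39, called late. This gives 4 groups: early KO with 3 libraries, early WT with 2, late KO with 3 and late WT with 3. Whether the early mice had already been given DSS is not stated. The column headers of the deposited tables give day 35 where the titles give day 39. Nothing says whether the libraries of a group came from separate animals, so p-values measure a spread between libraries that may be technical. In the main test that spread was pooled over all tested genes, not taken from each gene's own libraries.

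Macrophages take up lipoproteins and fatty acids, hold the surplus as esters in lipid droplets, and return cholesterol to lipoproteins outside the cell. Oxidised cholesterol activates the nuclear receptors LXR alpha and beta, which switch on export genes such as Abca1, Abcg1, Apoe and Pltp, while fatty acids act through PPAR receptors on genes such as Cd36, Fabp4 and Plin2. In the gut, resident macrophages clear dying cells and so handle much lipid of other cells.

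Library totals ran from 4003299 to 14207919 counts, and pairs of libraries correlated at a Spearman rho of 0.196 to 0.428 across the 6987 tested genes. Ptger4 went against the genotype label in 3 libraries labelled KO. It was also at 0 in both early WT libraries, so at day 0 only libraries labelled KO had it. An alternative below leaves out the 3 KO libraries and keeps the early WT ones. The early KO libraries had 1350, 0 and 890 Ptger4 counts and both early WT libraries none, and the late libraries had 1, 8 and 4501 (KO) and 1481, 152 and 7286 (WT). The labels do not say which exons were deleted, so 3′ counts outside the deleted part would check nothing. Directions between genotypes below therefore refer to the libraries labelled KO and WT. Of 12 macrophage markers, Csf1r, C1qa, C1qb, C1qc and H2-Ab1 had at least 100 counts in all 11 libraries. Fcgr1 (CD64), Ptprc (CD45) and Itgam (CD11b) reached 100 counts in 5, 6 and 7 libraries, and Mertk was at 0 in every library. Markers of skeletal muscle and of fibroblasts, cells that a CD45+ gate would remove, were present in all libraries, with summed levels of 2744 to 25028 and 3035 to 20995 CPM (counts scaled to library depth with TMM). These are bulk libraries, in which fewer cells of a type and less RNA per cell cannot be told apart.

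The promoters of Apoe and Abca1 are shown because both genes are textbook LXR targets, yet they stood far apart in these data: Apoe was abundant in every library, and Abca1 was near 0 in 5 of 11. Sequences are from RefSeq (GRCm38.p6) and run from 250 bases before the listed start site to 50 after it, 5′ to 3′ on the minus strand. For Apoe the start farthest upstream of the 3 listed is given, at chr7:19699139-19699438, and for Abca1 the window is chr4:53159846-53160145. Capitals mark an E-box (CACGTG), a GC box (GGGCGG) or a TATA motif (TATAAA), searched on both strands.
Apoe: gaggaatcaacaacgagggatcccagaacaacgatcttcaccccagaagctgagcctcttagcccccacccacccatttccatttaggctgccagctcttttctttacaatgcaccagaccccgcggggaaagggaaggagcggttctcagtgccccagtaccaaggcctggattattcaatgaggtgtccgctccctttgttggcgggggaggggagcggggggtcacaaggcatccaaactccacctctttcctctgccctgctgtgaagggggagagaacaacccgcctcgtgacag
Abca1: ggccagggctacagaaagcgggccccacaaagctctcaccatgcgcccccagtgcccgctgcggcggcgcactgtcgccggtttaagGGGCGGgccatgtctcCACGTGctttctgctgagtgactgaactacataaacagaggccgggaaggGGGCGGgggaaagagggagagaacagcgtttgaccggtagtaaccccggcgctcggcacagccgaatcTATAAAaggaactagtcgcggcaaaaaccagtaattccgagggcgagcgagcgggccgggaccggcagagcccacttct
The Abca1 window holds an E-box at -147 relative to the start, GC boxes at -163 and -97, and a TATA motif at -29. The Apoe window shown holds none of the 3 motifs, while another of the 3 Apoe windows holds TATA motifs at -100 and -96. Among all 32851 promoter windows of this length, 7.15% hold the E-box, 35.7% the GC box and 13.6% the TATA motif. LXR can bind the direct repeat DR4, 2 copies of AGGTCA with 4 bases between them. Its exact letters were found in none of the 8 windows listed for 6 of the 10 genes (Apoe, Abca1, Pltp, Plin2, Cd36 and Lrp1). They were found in 0.0152% of all windows. The exact letters of the PPAR-type repeat DR1, with 1 base between the copies, were also found in none of the 8, and in 0.0396% of all. Exact matches were so rare that none in 8 windows says nothing about sites with other letters. Looser forms of DR4 and DR1 were not searched. Plin2 was the other gene of the 6 with an E-box in its window, at -4.

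**Figure D1:**
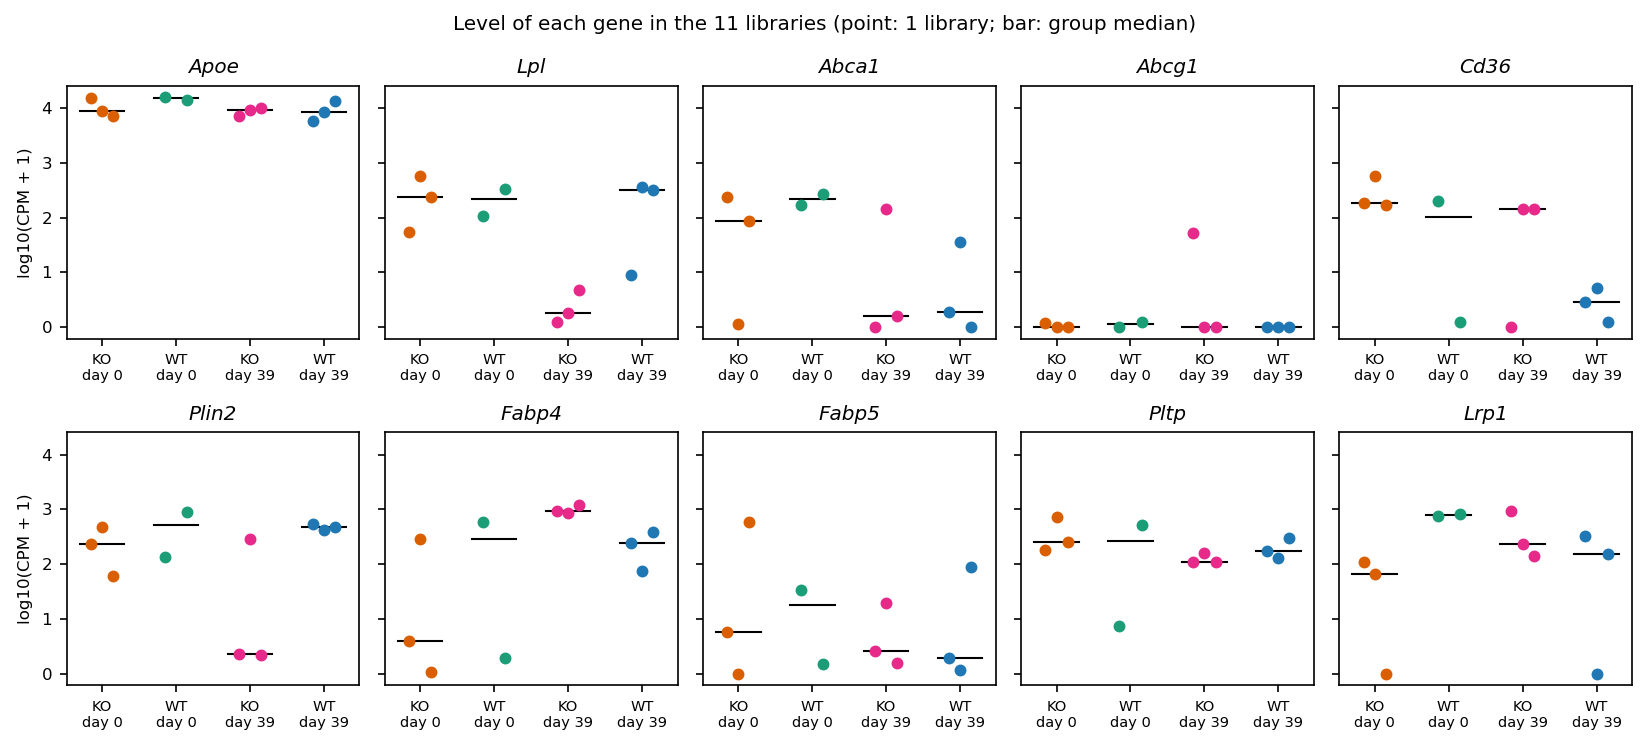
Level of each of the 10 genes in the 11 libraries, as log10 of CPM plus 1 (y axis), by genotype label and day (x axis); each point is 1 library and each bar a group median. Apoe lies in a narrow band between 5848 and 15570 CPM, while 8 of the other 9 genes have libraries near 0 and the lowest Pltp level is 6.43 CPM.

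Apoe, the apolipoprotein that macrophages secrete to carry cholesterol away, was the steady member of the set. It was at 15008, 8990 and 7014 CPM in early KO, and at 15570 and 14263 CPM in early WT. At day 39 it was at 7148, 9044 and 9830 CPM in KO and at 5848, 8552 and 13363 CPM in WT. The lowest library had 19265 Apoe counts, and the highest level was 2.66-fold the lowest. Apoe made up 0.481% to 2.01% of all counts of a library and 76.8% to 93.8% of the counts of the 10 genes together, in libraries that count 3′ ends and so do not scale with transcript length. Among 81 tested genes with a mean of at least 1000 CPM, 6 had a smaller coefficient of variation over the libraries than Apoe (0.335, against a median of 0.566), and 3 had a higher mean. All 3 late WT libraries lay below both early WT libraries, whereas the genotypes overlapped at day 39 and the days overlapped in KO.

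No contrast called Apoe in edgeR's quasi-likelihood test, and its intervals were the narrowest of the 9 tested members. Day 39 against day 0, averaged over genotypes, gave a log2 fold change of -0.47 ± 0.31 (SE), with a 95% interval of -1.07 to 0.13 and an edgeR adjusted p-value of 0.392. In WT alone it was -0.69 ± 0.45 (SE, interval -1.58 to 0.20, edgeR adjusted p = 0.421), and in KO -0.25 ± 0.41 (SE, interval -1.06 to 0.55, edgeR adjusted p = 0.891). Libraries labelled KO against WT gave -0.53 ± 0.46 at day 0 (SE, interval -1.42 to 0.36, edgeR adjusted p = 0.527) and -0.09 ± 0.41 at day 39 (SE, interval -0.90 to 0.71, edgeR adjusted p = 1). The Apoe interaction of genotype and day was 0.44 ± 0.61 (SE, edgeR adjusted p = 0.831), and 1.98 with upper-quartile scaling. The day 0 genotype difference passed under limma-voom (log2 fold change -1.05, limma-voom adjusted p = 0.000145), which called 2.38% of genes in that contrast. Over all other alternatives its adjusted p was higher than the threshold, up to 0.970. Upper-quartile scaling gave values outside these intervals, -2.23 for Apoe between genotypes at day 0, -2.41 over time in WT and -1.42 over time with genotypes averaged. Without replicate 1 of early KO, Apoe was at -0.90 between genotypes at day 0 and -0.28 over time with genotypes averaged. The Apoe interaction was then 0.81, and it was 0.17 without replicate 1 of late WT.

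Of the other 9 genes, Pltp was never at 10 or fewer counts (lowest 36), and Lpl was so in 2 late KO libraries. The remaining 7 were each at 10 or fewer counts in 2 to 10 libraries. Of the 110 counts of the 10 genes, 33 (30.0%) were 10 or fewer, 7 (6.36%) lay between 11 and 99, and 70 (63.6%) were 100 or more. The same gap held across the 2091 tested genes with a mean of 100 CPM or more, where 33.1% of counts were 10 or fewer and 4.23% lay between. Pltp reached 100 counts in 10 libraries, Plin2 and Lrp1 in 9, Fabp4 in 8, Lpl in 7, Abca1 and Cd36 in 6, Fabp5 in 3 and Abcg1 in 1. Of all tested genes, 3.61% reached 100 counts in all 11 libraries, as Apoe did, and 27.9% did so in exactly 2. A library held 5 to 8 of the 10 genes at 100 counts or more: 7 in each early KO library, 8 and 6 in early WT, 5, 7 and 5 in late KO, and 5, 6 and 7 in late WT. The smallest level a library could show at 3 counts was 0.196 to 0.911 CPM, for counting error only.

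**Figure D2:**
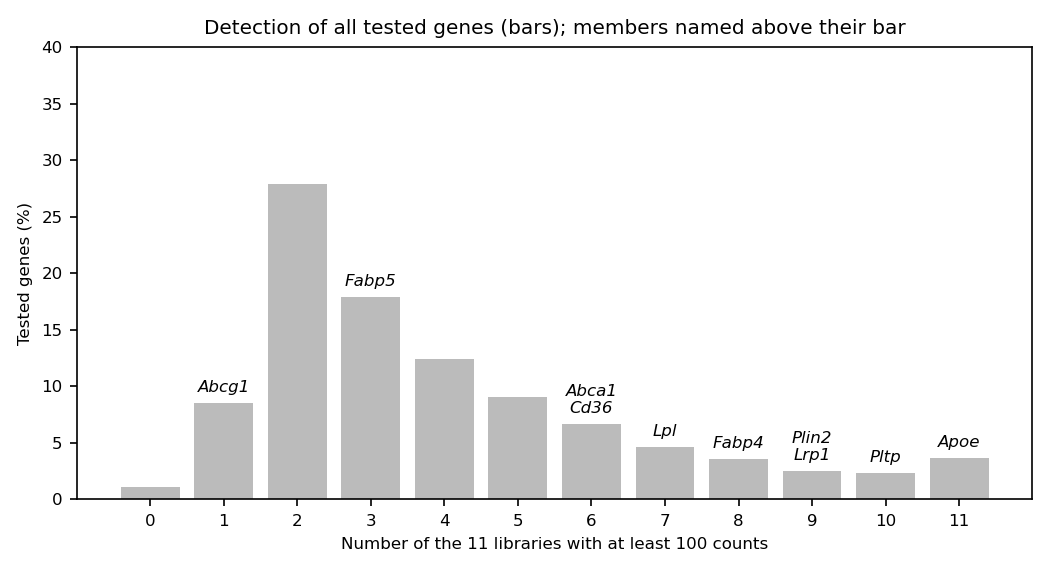
Share of the 6987 tested genes (y axis, percent) by the number of the 11 libraries in which they had at least 100 counts (x axis), with the 10 genes named above their bar. Apoe is in the group of 3.61% at all 11 libraries, and Abcg1, which was not tested, is at 1.

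The genes of cholesterol export were sparse apart from Apoe and Pltp. Abca1, the transporter that loads cholesterol onto apolipoprotein A-I, had 1460, 1 and 1295 counts in early KO and 961 and 1147 in early WT. At day 39 it had 0, 726 and 2 counts in KO and 3, 186 and 0 in WT. Both early WT libraries (172 and 270 CPM) lay above all 3 of late WT (0.911, 34.2 and 0 CPM), while the KO groups overlapped. The log2 fold change over time in WT was -4.24 ± 4.24 (SE, edgeR adjusted p = 0.617), so it was not larger than its own error. It was -9.10 without replicate 2 of late WT, -7.10 with limma-voom and -6.63 with a replicate block. Abcg1, which exports cholesterol to HDL, had 202 counts in replicate 1 of late KO and 1 or 0 in each of the other 10 libraries. It did not pass the filter on low counts and was not tested.

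Pltp, the transfer protein that moves phospholipid between lipoproteins, was at 181, 729 and 255 CPM in early KO and at 6.43 and 517 CPM in early WT. At day 39 it was at 109, 155 and 108 CPM in KO and at 170, 130 and 298 CPM in WT. Every late KO library was below every early KO library, and the WT groups overlapped. The difference in KO was -1.65 ± 2.62 in log2 units (SE, edgeR adjusted p = 0.888). Without the 3 libraries labelled KO that had at least 100 Ptger4 counts, called Ptger4-positive here, it was -2.47, and without replicate 2 of early KO it was -0.88. Leaving out the Ptger4-positive libraries leaves replicate 2 as the only early KO library (729 CPM for Pltp), assumed to vary like the other groups, in this and each value below that draws on early KO. Pltp overlaps Ctsa in RefSeq, and how shared reads were assigned is not given, so its counts are uncertain.

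Uptake was read from Lpl, Cd36 and Lrp1. Lpl, the lipase that frees fatty acids from triglyceride-rich lipoproteins, was at 53.4, 573 and 239 CPM in early KO and at 104 and 335 CPM in early WT. Later it was at 7.89, 363 and 314.5 CPM in WT and at 0.259, 0.790 and 3.75 CPM in KO, which were 1, 4 and 13 counts. All 3 late KO libraries thus lay below every other library of the series. The log2 fold change was -7.15 ± 3.82 for KO against WT at day 39 (SE, 95% interval -14.63 to 0.33, edgeR adjusted p = 0.491), and -7.48 ± 3.87 for day 39 against day 0 in KO (SE, interval -15.07 to 0.11, edgeR adjusted p = 0.277). In WT the same difference over time was 0.06 ± 3.26 (SE, edgeR adjusted p = 1) and ranged from -1.93 to 1.20 over the alternatives, with either sign, and the interaction of genotype and day was -7.54 ± 5.16 (SE, edgeR adjusted p = 0.477). Without the 3 Ptger4-positive libraries labelled KO, the Lpl values were -8.72 between genotypes at day 39 and -10.01 over time in KO, where replicate 2 (573 CPM, the highest Lpl level) was the only early KO library. DESeq2 called Lpl in 4 contrasts, with adjusted p-values of 0.00579 for KO against WT at day 39, 0.00118 over time in KO, 0.0293 over time with genotypes averaged and 0.0485 for the interaction. DESeq2 called 14.5%, 27%, 29.2% and 22.5% of the genes it tested in these contrasts.

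Other tissues make Lpl too, and their markers were unevenly spread over the same libraries. The 11 skeletal muscle markers summed to 4429, 3589 and 3489 CPM in late KO, below the 4510, 15225 and 6699 CPM of late WT, and to 2744, 25028 and 22433 CPM in early KO and 2809 and 8811 CPM in early WT. Of them Tnnc2 had 13, 2 and 10 counts in late KO, as in Lpl the lowest of all libraries, whereas Acta1 had at least 2877 counts and Atp2a1 at least 1464 in each of the 3. The 10 adipocyte markers summed to 24.8 to 351 CPM in late KO, 229 to 595 in late WT, 1.93 to 1965 in early KO and 159 to 410 in early WT. Of the adipocyte markers, Pck1 had 1353 counts in replicate 1 and Retn 657 and Car3 307 in replicate 2 of late KO. Adipoq had 8, 3536 and 1135 counts in early KO, 6 or fewer in every late library and 4 or fewer in early WT. The early KO libraries with high Adipoq, replicates 2 and 3, also had the highest Lpl of that group, with 8446 and 2105 counts of Cfd, and Adrb3 was at 0 in all 11 libraries. The CD45+ gate would remove adipocytes and muscle. The part of these cells in the Lpl values was not tested.

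Cd36, the receptor for long-chain fatty acids and oxidised lipoproteins, was at 180, 581 and 171 CPM in early KO and at 201 and 0.236 CPM in early WT. Later it was at 0, 141 and 139 CPM in KO, and at 1.82, 4.23 and 0.219 CPM in WT, which were 6, 23 and 1 counts. Every late KO library lay below every early KO library, and the genotypes overlapped at both days. The day 39 genotype difference was 5.46 ± 3.95 in log2 units (SE, edgeR adjusted p = 0.525), and the differences over time were -1.73 ± 3.35 in KO (SE, edgeR adjusted p = 0.931) and -5.58 ± 4.08 in WT (SE, edgeR adjusted p = 0.453). With limma-voom the Cd36 genotype difference at day 39 was 3.32. Over time in WT, Cd36 turned to 2.82 without replicate 1 of early WT and was at -2.67 with limma-voom. Over time in KO it was -3.01 without the 3 Ptger4-positive libraries, against 1 early KO library (581 CPM), -0.96 without replicate 2 of early KO and -4.12 with limma-voom. Replicate 2 of early KO, highest in Cd36, also had the highest muscle and adipocyte marker sums, 25028 and 1965 CPM. Replicates 1 and 3, at 180 and 171 CPM of Cd36, had muscle sums of 2744 and 22433 CPM. The CD45+ gate would remove these cells, and their part in the Cd36 values was not tested.

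Lrp1, the large endocytic receptor that binds apolipoprotein E and takes up remnants, was at 106, 64.3 and 0 CPM in early KO and at 737 and 814 CPM in early WT. Later it was at 942, 231 and 141 CPM in KO and at 318, 0 and 151 CPM in WT. The libraries labelled KO lay below those labelled WT at day 0, with a fitted difference of -3.77 ± 2.55 in log2 units (SE, edgeR adjusted p = 0.404), and the groups overlapped at day 39. Over time all KO libraries stood higher at day 39 (2.95 ± 2.36, SE, edgeR adjusted p = 0.504) and all WT libraries lower (-2.31 ± 2.45, SE, edgeR adjusted p = 0.645). The interaction for Lrp1 was 5.26 ± 3.39 (SE) on the log2 scale and did not pass (edgeR adjusted p = 0.445). It was 5.55 when the Ptger4-positive KO libraries were left out, with 1 early KO library (64.3 CPM). With limma-voom the Lrp1 values were -7.40 between genotypes at day 0, 6.10 over time in KO, -5.76 over time in WT and 11.85 for the interaction. Over time in WT, upper-quartile scaling gave -4.32. The Lrp1 difference over time in KO was 1.71 without replicate 1 of late KO. Lrp1 overlaps 2 predicted genes in RefSeq, which are not among the entries counted, unlike Ctsa for Pltp. The annotation used is not given, so Lrp1 counts remain uncertain.

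Storage and fatty acid binding were read from Plin2, Fabp4 and Fabp5. Plin2, which coats lipid droplets, was at 229, 483 and 58.5 CPM in early KO and at 131 and 892 CPM in early WT. In late WT it was at 533, 410 and 473 CPM, a tight group, and in late KO at 1.29, 291 and 1.15 CPM, where replicates 1 and 3 had 5 and 4 counts. All late KO libraries were thus below those of late WT, with -2.27 ± 2.30 in log2 units (SE, edgeR adjusted p = 0.752). Without the 3 Ptger4-positive libraries it was -1.66, without replicate 2 of late KO -8.56, with a replicate block -5.44 and with limma-voom -5.77. Plin2 overlaps a predicted gene in RefSeq, which is not among the entries counted. The annotation used is not given, so Plin2 counts remain uncertain.

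Fabp4, a fatty acid binding protein of macrophages, adipocytes and capillary endothelium, was high in all late KO libraries. It was at 912, 849 and 1173 CPM there, above the 237, 73.6 and 378 CPM of late WT and the 2.89, 291 and 0.0655 CPM of early KO. The early WT libraries were at 579 and 0.942 CPM. No library of another group reached the late KO range, yet neither contrast passed: the log2 fold change was 2.09 ± 1.99 for KO against WT at day 39 (SE, interval -1.81 to 5.99, edgeR adjusted p = 0.713) and 3.32 ± 2.09 over time in KO (SE, interval -0.78 to 7.42, edgeR adjusted p = 0.348). These Fabp4 values were 1.92 and 1.58 when the Ptger4-positive KO libraries were left out, the latter against 1 early KO library (291 CPM). Over time in KO, Fabp4 was at 9.30 without replicate 2 of early KO and at 7.95 with limma-voom. In the late KO libraries 8 listed markers of neutrophils and monocytes summed to 781 to 1454 CPM, against 10.3 to 219 in late WT, 3.73 to 172 in early KO and 2.59 to 851 in early WT. The 12 endothelial markers summed to 95.4 to 566 CPM in late KO, 0.219 to 311 in late WT, 0 to 168 in early KO and 0 to 0.236 in early WT, and Tek, Tie1 and Gpihbp1 were at 0 in every library. Each late KO library had 1 endothelial marker at 100 counts or more, a different one each time. These were Flt1 (2185 counts) in replicate 1, Egfl7 (483) in replicate 2 and Emcn (340) in replicate 3. Cdh5 and Kdr were at 0 in late KO, and replicate 2 of late WT had 5 endothelial markers at 100 counts or more. The Ly6G- Ly6C- gate would remove neutrophils and monocytes, and the CD45+ gate endothelial cells and adipocytes, whose sums are given with Lpl. The part of these cells in the Fabp4 values was not tested.

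Fabp5, the epidermal-type member of the same binding protein family, had 8886 counts in replicate 3 of early KO, 391 in replicate 3 of late WT and 186 in replicate 1 of early WT. In the other 8 libraries it had 94 counts or fewer. In late KO, where Fabp4 was high, Fabp5 had 6, 94 and 2 counts.

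**Figure D3:**
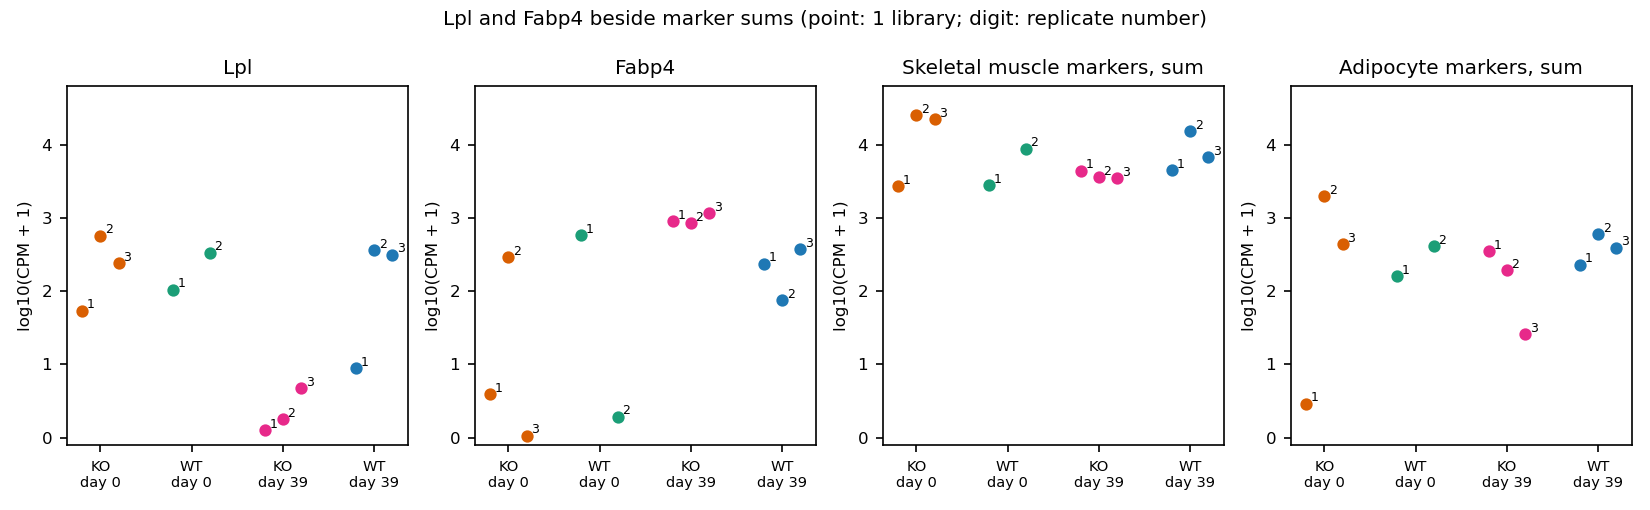
Lpl, Fabp4 and the summed levels of 11 skeletal muscle and 10 adipocyte markers in each library, as log10 of CPM plus 1 (y axes), by group (x axes); points are libraries, digits their replicate numbers. Late KO libraries are lowest for Lpl (0.259 to 3.75 CPM) and highest for Fabp4 (849 to 1173 CPM).

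The design asks whether the labelled loss of EP4 altered these genes at either day, and whether they differed late in the course from its start. None of the 9 tested members passed the edgeR threshold (Benjamini-Hochberg adjusted p under 0.05) in any of 6 contrasts, and none had an unadjusted p under 0.05. The share of all tested genes past the threshold was 0.0143% for KO against WT at day 0, 0.0286% for KO against WT at day 39, 0.0143% over time in WT, 0.157% over time in KO, 0.301% over time with genotypes averaged (0.258% higher and 0.0429% lower) and 0% for the interaction. At an unadjusted p under 0.05 it was 7.99%, 7.28%, 6.68%, 18.2%, 19.2% and 14.4%. DESeq2 called 1 member, Lpl, in 4 contrasts, and limma-voom called 1, Apoe, in 1 contrast. In the order above, DESeq2 called 30%, 14.5%, 28.4%, 27%, 29.2% and 22.5% of the genes it tested, and limma-voom 2.38%, 0.458%, 2.35%, 2.76%, 2.75% and 0.186%. A gene that did not pass was not shown to be the same in both groups: apart from Apoe, the 95% intervals of the time difference with genotypes averaged ranged in width from that of Fabp4 (-1.44 to 4.42) to that of Fabp5 (-7.50 to 3.46).

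With genotypes averaged, 7 of the 9 tested members had a lower fitted level at day 39 and 2 (Fabp4 and Lrp1) a higher one, with a median log2 fold change of -1.02. Over all 6987 tested genes 59.8% were higher, with a median of 0.76, so 0 is not the centre of this contrast. The values were -3.71 ± 2.34 (SE) for Lpl, -3.65 ± 2.62 for Cd36, -2.69 ± 2.77 for Abca1, -2.02 ± 2.79 for Fabp5, -1.02 ± 1.91 for Pltp, -0.75 ± 1.64 for Plin2, 0.32 ± 1.65 for Lrp1 and 1.49 ± 1.5 for Fabp4. Without the 3 Ptger4-positive libraries the signs for Abca1 (2.31) and Fabp5 (4.78) turned, with 1 early KO library left, which had 1 Abca1 count and 0 Fabp5 counts. Abca1 was at -6.33 without replicate 2 of late KO and with the replicate block, and at -5.14 without replicate 2 of late WT. Leaving out 1 library turned Cd36 (0.47 without replicate 1 of early WT), Plin2 (0.23) and Pltp (1.64, both without replicate 2 of early WT). It also turned Fabp5 (1.34 without replicate 3 of early KO, 0.42 without replicate 1 of early WT) and Lrp1 (-0.38 without replicate 1 of late KO, -0.24 without replicate 1 of late WT). The sign for Lrp1 turned under upper-quartile scaling (-0.82) and that of Pltp under limma-voom (0.30). Fabp4 kept its sign, at 5.47 without replicate 1 of early WT, 4.39 without replicate 2 of early KO, 5.28 with limma-voom, 0.98 without replicate 2 of early WT and 0.66 without the Ptger4-positive libraries. The 14 epithelial markers summed to 74.7 to 1340 CPM in early KO and 4038 to 9137 in late KO, and to 907 to 1776 in early WT and 1582 to 7440 in late WT. The CD45+ gate would remove epithelial cells, and their part in these values was not tested. Under the scalings tried the all-gene median of this contrast ranged down to 0.185, for upper quartile. No member separated the 6 day 39 from the 5 day 0 libraries, which 1.76% of tested genes did.

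Groups that did not overlap in CPM were counted in each contrast of single groups. At day 0 this held for 1 of the 9 tested members between genotypes (Lrp1, lower in libraries labelled KO), against 12% of tested genes, 6.73% higher and 5.25% lower. Later it held for 3 (Fabp4 higher in libraries labelled KO, Lpl and Plin2 lower), against 7.4%, 3.41% higher and 3.99% lower. Over time it held for 3 in WT (Apoe, Abca1 and Lrp1, all lower at day 39), against 17.4%, 12.7% higher and 4.72% lower. It held for 5 over time in KO (Fabp4 and Lrp1 higher, Lpl, Cd36 and Pltp lower), against 11.3%, 8.07% higher and 3.21% lower. The members were detected in more libraries than most genes, and among the 1619 tested genes with 100 counts in 6 or more libraries the shares were 19.2%, 12%, 27.1% and 16.2%. The late KO libraries enter 8 of these 12 separations, and for Lpl and Fabp4 the same late KO values enter 2 contrasts.

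**Figure D4:**
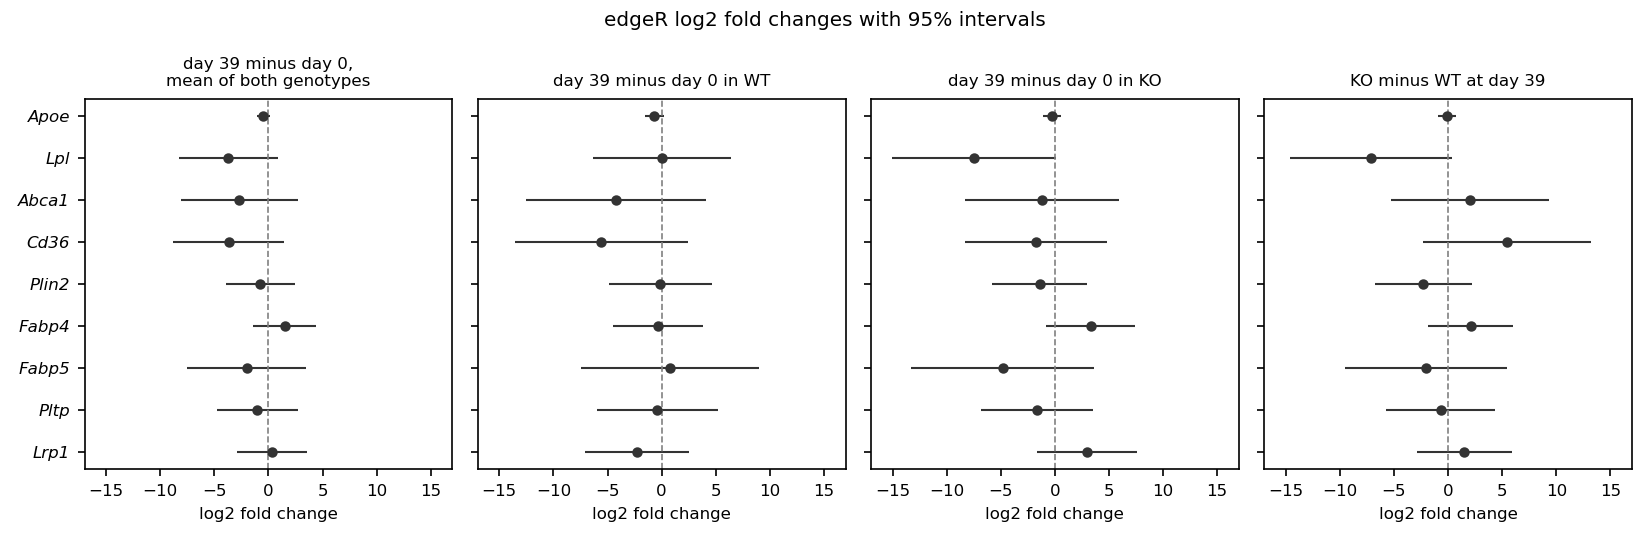
edgeR log2 fold changes (x axis) of the 9 tested members (y axis) in 4 contrasts, with 95% intervals as bars. Every interval includes 0; that of Apoe is the narrowest, and those of Lpl in KO over time (-15.07 to 0.11) and between genotypes at day 39 (-14.63 to 0.33) reach 0 only at their upper end.

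Genes of the wider lipid pathway were set beside the members from 9 lists of 125 genes, all listed in the files, of which 96 were tested. None passed the edgeR threshold in any of the 6 contrasts, and 49 of 576 tests had an unadjusted p under 0.05, where all tested genes had shares of 6.68% to 19.2% by contrast. Among regulators, the corepressor gene Ncor1 ranged from 0.161 to 2005 CPM with a median of 330, and Nr4a1, an early-response nuclear receptor, from 2.12 to 1478 CPM with a median of 368. Among scavenger receptors, Msr1, which takes up modified lipoproteins, had a median of 204 CPM and was at 0.207 CPM ± 0.0403 (SD, n = 2) in early WT. Cd68, a lysosomal glycoprotein, ranged from 0 to 666 CPM. The apolipoprotein list was led by Apobec1, an editing enzyme of the apolipoprotein B transcript, and Apoc1, which reached 100 counts in 4 and 3 libraries. Apoc1 is a close neighbour of Apoe in the genome, but its median was 0.236 CPM.

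Both named genes of lysosomal cholesterol handling were in every library. Npc2, which hands cholesterol on inside the lysosome, had at least 306 counts in every library (72.1 to 2035 CPM, median 863), and the lysosomal membrane gene Lamp1 at least 1244 (median 378 CPM). Of the sterol synthesis enzymes, Hmgcs1 and Hsd17b7 reached 100 counts in 6 and 3 libraries. Scd1, the desaturase that makes monounsaturated fatty acids, was at 1121 CPM ± 936 (SD, n = 3) in the early KO libraries and 531 ± 120 (SD, n = 2) in the early WT ones, and at 85.0 ± 73.0 (SD, n = 3) in late KO and 198 ± 201 (SD, n = 3) in late WT. Elovl6, a fatty acid elongase, ranged from 0 to 968 CPM. Mgll, which splits monoacylglycerols, had at least 221 counts in every library (43.7 to 3683 CPM, median 295), while Hilpda, an inhibitor of lipolysis, reached 100 counts in 5. In the oxidation list, Ucp2, a mitochondrial carrier, was in every library (82.4 to 722 CPM), and Acadl, an acyl-CoA dehydrogenase, had a median of 3.34 CPM. Lgals3 and Ctsb, which lead the list of lipid-associated macrophages, were in every library, at 145 to 2224 and 241 to 2424 CPM.

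In the time contrast with genotypes averaged, fitted levels were higher at day 39 for 6 of 10 regulators, 7 of 10 uptake genes, 4 of 6 apolipoprotein and efflux genes, 6 of 8 lysosomal genes, 7 of 15 sterol synthesis genes, 7 of 14 fatty acid synthesis genes, 7 of 12 droplet and lipolysis genes, 7 of 11 oxidation genes and 7 of 10 genes of lipid-associated macrophages. Their median log2 fold changes were 0.23, 1.34, 1.46, 1.5, -0.38, -0.06, 0.64, 0.90 and 0.36, against 0.76 over all tested genes. Many of these genes had a group at 3 counts or fewer. With those set to a bound at 3 counts per library the medians were 0.23, 0.77, 1.30, 0.80, -0.41, -0.06, -0.01, 0.04 and 0.18, against 0.44 over all genes. No tested member had such a group.

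The genes whose CPM followed Apoe most closely over the 11 libraries were Rgs1 (Spearman rho 0.864), a regulator of G protein signalling, Mgl2 (0.855), a C-type lectin, and Selplg (0.815), the P-selectin ligand, among 2090 tested genes with a mean of at least 100 CPM. Rgs1 ranged from 71.7 to 1956 CPM, while Mgl2 and Selplg were at 8 and 0 counts in their lowest library. The values share libraries and scaling, and the 3 were picked as the highest of many.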

How the data were processed

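The deposited tables hold whole-number counts per gene symbol, per the file headers. Lexogen QuantSeq libraries, which read transcript 3′ ends, were made from Trizol RNA per the labels' protocols. The submitters' processing notes name Bowtie2, edgeR and hg19, a human build, with no role, although the symbols are of mouse. The counter, annotation, strand setting and use of molecular identifiers are not given in the sources used here. Groups and replicate numbers come from the titles.

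The main test was that of edgeR 4.0.16 (R 4.3.3): filterByExpr (6987 of 23282 entries tested), TMM scaling, 1 coefficient per group over all 11 libraries, robust quasi-likelihood, two-sided, with Benjamini-Hochberg adjustment over all tested genes. The common biological coefficient of variation was 2.48. SE is the log2 fold change over the square root of F. The total degrees of freedom were 48910 for every member, so SE, intervals and p-values rest on a spread pooled over the tested genes. They do not follow how close together a member's own libraries lay. CPM are counts over the TMM-scaled sum of tested genes. A floor of 3 counts per library and all intervals cover counting error or library spread only, since PCR copies are not independent. Named genes were the 10 members, the 2 genes of each pathway list with the highest mean CPM, any list gene past the threshold, and the 3 genes most like the member with the highest mean. The members and lists were chosen with earlier results of these data known. The separation counts and the marker sums set beside members were chosen after the values were seen. So were the fold changes named beyond the averaged time contrast, the printed promoters and the motifs. The fit was tested on simulated data. Alternatives were 3 other scalings, DESeq2 1.42.0, limma-voom (limma 3.58.1), 2 other filters, fits to the compared groups only, a replicate block and each library left out. Figures were drawn with matplotlib 3.10.9.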

Additional observations from a re-analysis of the deposited data

Results flagged for a closer look

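Lrp1 levels differed over time in opposite directions in the 2 genotypes, with every library in its direction. All 3 late KO libraries (942, 231 and 141 CPM) were above all 3 of early KO (106, 64.3 and 0 CPM), and all 3 of late WT (318, 0 and 151 CPM) were below both of early WT (737 and 814 CPM). The edgeR test of this difference gave 5.26 ± 3.39 (SE) on the log2 scale and did not pass (edgeR adjusted p = 0.445). Leaving out each library in turn gave 4.18 to 6.23, and limma-voom gave 11.85, the highest of the alternatives. Over time, the groups did not overlap for 17.4% of all tested genes in WT and 11.3% in KO. The share of genes that separated in opposite directions in both genotypes was not counted. Early WT had only 2 libraries, and the separations were looked at after the values were seen.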

How the results depend on the processing

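The number of members past the threshold was 0 in each of the 6 contrasts, and stayed at 0 in 119 of 124 values under alternatives, including the replicate block (0 members in each contrast). The exceptions were 1 member (Lpl) with DESeq2 for KO against WT at day 39, over time in KO, over time with genotypes averaged and for the interaction, and 1 member (Apoe) with limma-voom for KO against WT at day 0. Of 618 fold changes under alternatives, for 30 values printed above, 27 turned in sign. Lpl over time in WT, near 0, turned with DESeq2 size factors (-0.18), DESeq2 (-0.18), upper quartile (-1.93), limma-voom (-0.58), a filter on mean counts of 10 (-0.08), no filter (-0.10), the replicate block (-1.43) and without the Ptger4-positive libraries (-0.01), and leaving out 1 library gave -0.76 to 1.20. With limma-voom the others were Apoe over time in KO (0.24) and Pltp over time with genotypes averaged (0.30). With upper quartile it was Lrp1 over time with genotypes averaged (-0.82). Without the 3 KO libraries whose Ptger4 goes against the label, an alternative chosen after the data were seen, which leaves 1 early KO library, Abca1 (2.31) and Fabp5 (4.78) turned over time with genotypes averaged. Leaving out 1 library gave -0.46 to 0.27 for Apoe between genotypes at day 39 and -0.44 to 0.12 over time in KO, and, for Cd36 over time in WT, -6.92 to 2.82. With genotypes averaged over time it gave -4.33 to 0.47 for Cd36, -4.86 to 1.34 for Fabp5, -0.38 to 0.73 for Lrp1, -3.90 to 0.23 for Plin2 and -1.66 to 1.64 for Pltp. The causes were not tested. The fit without the Ptger4-positive libraries and those without an early WT library assume that the lone library varies like the other groups. Fits to the compared groups only do not apply to the 2 contrasts that use all groups. Same-numbered libraries of different groups did not deviate together (15 pairs, r -0.0137 to 0.0697). Even within a group, libraries correlated at a Spearman rho of at most 0.389, so shared animals or batches could go unseen. Whether the numbers pair the libraries thus stays unknown. This check and the block use title numbers, and the early WT library titled 2 has header number 3. Genes at 10 or fewer counts in a library limit what fold can be read from them.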
